A study of Rattus norvegicus with 9 samples.

Results

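The genes described here bring free fatty acids into the cell, carry them in the cytosol and activate them to acyl-CoA. They were chosen by name as the long-chain acyl-CoA synthetases Acsl1, Acsl3, Acsl4, Acsl5 and Acsl6, the fatty acid transport proteins Slc27a1 and Slc27a4, the fatty acid binding proteins Fabp3 and Fabp5, and the fatty acid receptor Cd36. Of these 10 genes, 9 had values among the 20645 genes of the table and Cd36 was not analysed here. All 9 passed the filter on low values (a mean of at least 1 FPKM over the 9 libraries), as did 12958 genes in all. FPKM is fragments counted per kilobase of transcript and per unit of library size, so levels of different genes were compared on this scale only.

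The RNA came from INS-1E, a clonal rat insulinoma line used as a model of the pancreatic beta cell, so the values describe 1 tumour line and not islets. The BSA group received fatty-acid-free bovine serum albumin, the carrier of the fatty acid, the PA group received 0.5 mM palmitic acid, and the PA + C3G group received 0.5 mM palmitic acid with 50 µM cyanidin-3-O-glucoside, a plant anthocyanin. Each group held 3 libraries collected after 24 h, and by the study's methods no group received C3G without palmitic acid. The study's methods describe its experiments as at least biological triplicates, while the labels of these libraries do not name separate cultures, so p-values measure the spread between these libraries, part of which may be technical.

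Long-chain fatty acids enter most of their metabolism after an acyl-CoA synthetase has joined them to coenzyme A. This step uses ATP and holds the fatty acid inside the cell. Acyl-CoA is then oxidised in mitochondria and peroxisomes, desaturated, or built into phospholipids, triglycerides and ceramides. In beta cells fatty acids raise insulin secretion in the short term, while long exposure to saturated fatty acids such as palmitate impairs secretion and survival.

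Every library carried the beta-cell markers (9 of 9 tested), although their summed level, mostly insulin mRNA, was 45151 to 45843 FPKM in BSA, 19081 to 19690 FPKM in PA and 41891 to 47699 FPKM in PA + C3G. The part of this shift in the values below was not tested. The fall in PA was uneven among the markers. Ins1 averaged 26650 FPKM in BSA and 13744 FPKM in PA, and Ins2 13778 and 1871 FPKM. Nkx6-1 averaged 50.0 and 52.1 FPKM in the same groups, and Slc30a8 890 and 717 FPKM. In bulk RNA, fewer cells of a type and less RNA per cell cannot be told apart, and neither was tested here. Of the markers of other islet cells, 2 of 4 had values, chiefly Gcg. They summed to 9.55 to 31.9 FPKM in BSA, 2.68 to 7.01 FPKM in PA and 5.37 to 23.1 FPKM in PA + C3G. Markers of macrophages (5 of 7 with values), endothelial cells (3 of 5) and acinar cells (3 of 6) summed to at most 0.998 FPKM in any library. Markers without values could not be judged. The adipocyte markers, of which 3 of 6 had values and 2 passed the filter, summed to 3.57 to 5.57 FPKM. The striated muscle markers, of which Actn2 alone passed the filter, summed to 2.99 to 3.23 FPKM in BSA, 4.66 to 5.07 FPKM in PA and 4.04 to 4.60 FPKM in PA + C3G. Depth ranged from 45559993 to 66730721 estimated counts per library, whose low values pile up at multiples of 4, from which 1 fragment was taken as about 4 counts.

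With palmitic acid, 8 of the 9 genes passed the test at an adjusted p under 0.05 (edgeR's quasi-likelihood test with Benjamini-Hochberg adjustment). Fabp3, Acsl4, Fabp5, Acsl3, Acsl5, Acsl6 and Slc27a4 were higher than in BSA, Acsl1 was lower, and Slc27a1 did not pass. Of all genes tested, 51.0% passed in this comparison, 25.8% higher and 25.2% lower. The median log2 fold change was 0.28 over the 9 genes and 0.0030 over all genes tested. The FPKM of the 2 groups did not overlap for 8 of the 9 genes, against 59.9% of all genes tested.

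When C3G was given with palmitic acid, Fabp5, Acsl4 and Acsl1 were lower than with palmitic acid alone and 6 of the 9 genes did not pass the test. Of all genes tested, 21.2% passed, 11.1% higher and 10.2% lower. This was 2752 genes (1436 higher, 1316 lower), against 1718 without PA replicate 3, and 775 higher and 2525 lower when each library was scaled to the same FPKM sum. Among the 9 genes, 0 were higher by edgeR, by DESeq2 and by limma, and 1, Slc27a1, was higher at an unadjusted p under 0.05 in edgeR. The median log2 fold change of the 9 genes was −0.05, and the FPKM of the groups did not overlap for 4 of them, against 39.5% of all genes tested. Against BSA, the PA + C3G group had 6 of the 9 genes past the test, with Fabp3, Acsl4, Acsl3 and Acsl5 higher and Acsl1 and Fabp5 lower, where 36.9% of all genes tested passed (19.0% higher, 17.9% lower). The FPKM of these groups did not overlap for 6 of the 9 genes and for 50.3% of all genes tested. These comparisons share libraries, so their values are given side by side and their overlap is not read as a result.

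**Figure D1:**
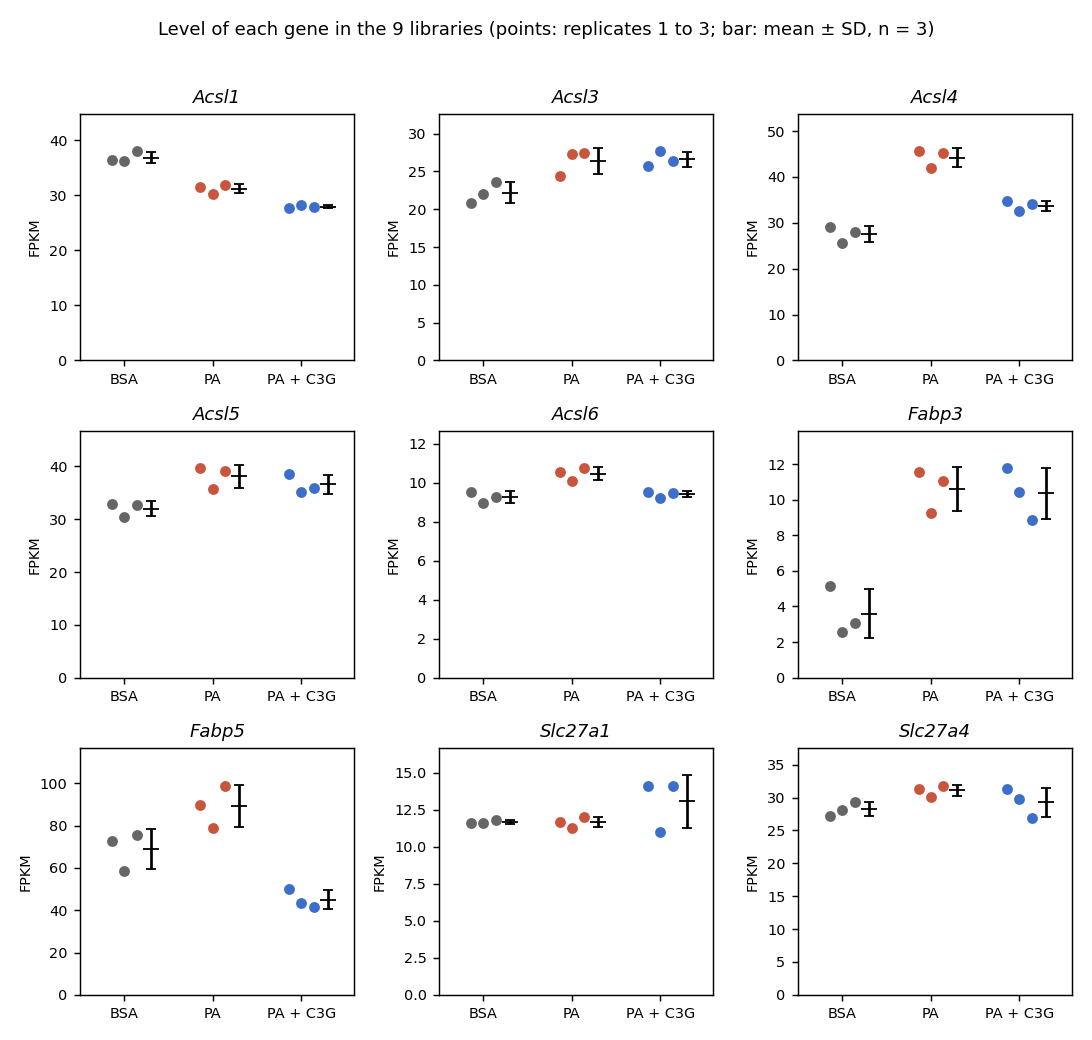
Level of each gene in FPKM (vertical axes, each starting at 0) in the BSA, PA and PA + C3G groups. Points are replicates 1 to 3 of a group, and the bars beside them give the mean ± SD (n = 3). Acsl4 lies between 42.0 and 45.6 in PA, above both other groups, and Fabp5 lies between 41.6 and 50.1 in PA + C3G, below both other groups.

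Acsl3, Acsl4, Acsl5 and Fabp3 were above BSA both with palmitic acid and with palmitic acid plus C3G. Both comparisons use the same BSA libraries, so this shared direction was partly built in and is not read as a result. In PA + C3G vs PA, Acsl4 was lower, while Acsl3, Acsl5 and Fabp3 did not pass the test. The direction only decided which promoters are shown. The bases directly before each annotated gene start are given 5′ to 3′ on the strand of the gene, from RefSeq on build GRCr8, with capitals marking letters of the motifs searched.
Acsl3, chr9:87563351-87563600, plus strand: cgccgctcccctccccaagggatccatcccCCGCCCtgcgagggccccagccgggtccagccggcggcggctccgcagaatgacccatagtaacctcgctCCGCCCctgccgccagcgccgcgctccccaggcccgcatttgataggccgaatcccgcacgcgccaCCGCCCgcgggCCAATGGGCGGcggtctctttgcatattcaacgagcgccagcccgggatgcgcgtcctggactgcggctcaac
Acsl4, chrX:110803417-110803511, minus strand: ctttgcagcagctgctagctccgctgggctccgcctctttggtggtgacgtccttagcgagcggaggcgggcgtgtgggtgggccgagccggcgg
Acsl5, chr1:264294601-264294850, plus strand: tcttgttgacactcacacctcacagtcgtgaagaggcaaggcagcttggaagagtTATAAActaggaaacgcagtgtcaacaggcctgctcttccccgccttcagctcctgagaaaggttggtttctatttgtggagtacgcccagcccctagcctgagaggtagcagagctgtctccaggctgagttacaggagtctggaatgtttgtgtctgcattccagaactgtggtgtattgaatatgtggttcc
Fabp3, chr5:147935875-147936026, plus strand: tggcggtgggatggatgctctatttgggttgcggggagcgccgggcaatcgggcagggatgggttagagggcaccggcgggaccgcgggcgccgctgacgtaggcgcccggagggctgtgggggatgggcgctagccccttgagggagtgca

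No motif was found in more than 1 of the 4 stretches shown. These stretches differ in length, with 250 bases for Acsl3 and Acsl5, 95 for Acsl4 and 152 for Fabp3. Acsl3 holds 4 GC boxes (GGGCGG, read on either strand) and a CCAAT box that directly adjoins the last of them, Acsl5 holds a TATAAA, and the stretches shown of Acsl4 and Fabp3 hold none of the motifs. The full RefSeq windows hold 300 bases and reach into the gene, and those of Acsl1, Acsl6 and Slc27a1 hold 0 bases before the annotated start. In these windows GGGCGG was found in 4 of the 8 genes with an entry (Acsl3, Acsl4, Acsl6 and Slc27a4) and in 33.1% of 33469 windows. CCAAT was found in 3 of 8 and in 37.5% of all windows, and TATAAA in 1 of 8 and in 14.2%. AGGTCA, the half-site of many nuclear receptors including the PPARs, was found in 1 of 8, Slc27a1, and in 16.2% of all windows. CACGTG and TGANTCA were in 0 of 8 windows, and in 6.42% and 7.33% of all windows. All motifs were searched on both strands, and a match describes the letters and not a bound site.

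Of the uptake genes, Slc27a4 was slightly higher with palmitic acid and Slc27a1 passed the test in no comparison. Both encode fatty acid transport proteins (FATP1 and FATP4), membrane proteins that promote uptake and also have acyl-CoA synthetase activity. Slc27a4 (ENSRNOG00000014369, chr3:8363937-8376858, plus strand, in coordinates of the authors' table, whose build is not given in the sources used here) stood at 27.2, 28.2 and 29.3 FPKM in the BSA libraries. It was 31.3, 30.1 and 31.8 FPKM in PA and 31.2, 29.8 and 26.9 FPKM in PA + C3G. The PA libraries lay above the BSA libraries, and the PA + C3G libraries spread over both. In PA vs BSA the log2 fold change was 0.16 (SE 0.06, adjusted p = 0.0397 by edgeR). This call was lost in 9 of 20 alternatives, with adjusted p from 0.0139 to 0.138 and 0.0584 with the replicate number as a block. The value was −0.05 in PA + C3G vs PA (adjusted p = 0.617 by edgeR), and in PA + C3G vs BSA 0.12 (adjusted p = 0.153), or 0.17 with adjusted p = 0.0333 without PA + C3G replicate 3.

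Slc27a1 (ENSRNOG00000018170, chr16:19999112-20016190, plus strand) was 11.6, 11.6 and 11.8 FPKM in BSA and 11.7, 11.3 and 12.0 FPKM in PA. It was 14.1, 11.0 and 14.1 FPKM in PA + C3G. In this last group, 2 libraries lay above all others and replicate 2 lay below all others. The log2 fold change was 0.02 in PA vs BSA (SE 0.09, adjusted p = 0.852 by edgeR), 0.20 in PA + C3G vs PA (adjusted p = 0.142) and 0.22 in PA + C3G vs BSA (adjusted p = 0.0750). Without PA + C3G replicate 2 the last 2 values became 0.31 (adjusted p = 0.00586) and 0.33 (adjusted p = 0.00154), so 1 library decided these calls. DESeq2 also called the latter comparison with all libraries (adjusted p = 0.0491).

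Cd36 encodes a plasma membrane receptor for long-chain fatty acids. A gene annotated as similar to CD36, RGD1565355, was between 0 and 0.0526 FPKM in the 9 libraries. It was named after its values were seen and is not taken as Cd36.

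Among the 9 genes the largest change in PA vs BSA was that of Fabp3 and the largest in PA + C3G vs PA that of Fabp5, both cytosolic carriers. Fabp3, the heart-type fatty acid binding protein, was higher in both groups given palmitic acid, whereas Fabp5, the epidermal type, was higher with palmitic acid alone and fell below the BSA level with C3G. Both proteins bind long-chain fatty acids and ferry them between membranes, enzymes and, for Fabp5, the nuclear receptor PPAR delta.

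Fabp3 (ENSRNOG00000012879, chr5:148528725-148535565, plus strand) had the lowest BSA level of the 9 genes, at 5.14, 2.58 and 3.09 FPKM. It reached 11.6, 9.23 and 11.0 FPKM in PA and 11.8, 10.4 and 8.87 FPKM in PA + C3G. Every library given palmitic acid lay above every BSA library, while the PA and PA + C3G libraries overlapped. The rise in PA vs BSA was 2.98-fold (log2 fold change 1.58, SE 0.24, adjusted p = 0.000468 by edgeR), and it ranked 150 by size among the 6505 genes with a higher estimate. The rise in PA + C3G vs BSA was 2.99-fold (log2 fold change 1.58, adjusted p = 0.000776 by edgeR) and ranked 76 of 6582. The difference between PA + C3G and PA was 0.00 (SE 0.24, adjusted p = 0.993). These values rest on 112 to 622 estimated counts per library, or fewer fragments if 1 fragment gives about 4 counts, and BSA replicate 1 was the highest of its group.

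Fabp5 (ENSRNOG00000049075, chr2:93981656-93985378, minus strand) had the highest level of the 9 genes in every group. It was 72.9, 58.4 and 75.7 FPKM in BSA, 89.6, 78.9 and 98.9 FPKM in PA, and 50.1, 43.4 and 41.6 FPKM in PA + C3G. All 3 PA + C3G libraries lay below all 6 others, and all 3 PA libraries lay above all BSA libraries. C3G given with palmitic acid lowered Fabp5 by 1.93-fold compared with the PA group (log2 fold change −0.95, SE 0.12, adjusted p = 0.000695 by edgeR). Among the 6498 genes with a lower estimate it ranked 108 by size and 112 by p-value. Compared with BSA it was 1.47-fold lower (log2 fold change −0.55, SE 0.11, adjusted p = 0.00425). The rise in PA vs BSA was 1.31-fold (log2 fold change 0.39, SE 0.11, adjusted p = 0.0159), and this call was lost without BSA replicate 2 (0.28, adjusted p = 0.0514) or without PA replicate 3 (0.32, adjusted p = 0.0632). RefSeq lists the pseudogenes Fabp5-ps2 and Fabp5-ps3, with which Fabp5 may share reads, so its level is uncertain to that extent.

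**Figure D2:**
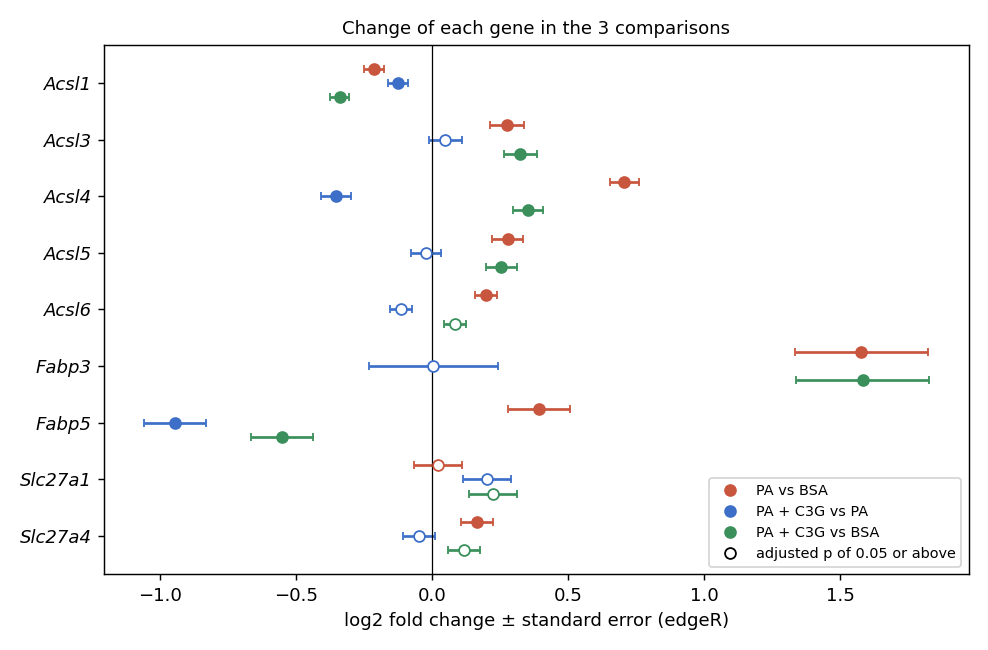
Log2 fold change of each gene (horizontal axis) in PA vs BSA, PA + C3G vs PA and PA + C3G vs BSA, by edgeR, with bars of 1 SE and filled points for an adjusted p under 0.05. Fabp3 is at 1.58 in both comparisons with BSA and at 0.00 between PA + C3G and PA, while Fabp5 goes from 0.39 to −0.95.

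Among the acyl-CoA synthetases, palmitic acid moved the genes in different directions. Acsl4, Acsl3, Acsl5 and Acsl6 rose and Acsl1 fell, and with C3G both Acsl4 and Acsl1 were lower than with palmitic acid alone. The levels before the tests are given gene by gene.

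Acsl4 (ENSRNOG00000019180, chrX:113596239-113659944, minus strand) encodes the synthetase that prefers arachidonic acid and other polyunsaturated fatty acids and is known for promoting ferroptosis, a death by lipid peroxidation. It was 29.1, 25.6 and 28.0 FPKM in BSA, 45.6, 42.0 and 45.1 FPKM in PA, and 34.7, 32.5 and 34.0 FPKM in PA + C3G. No group overlapped another, and the PA + C3G libraries lay between the other groups. Palmitic acid raised Acsl4 by 1.63-fold (log2 fold change 0.71, SE 0.05, adjusted p = 3.98e-06 by edgeR). With C3G it was lower than in PA (log2 fold change −0.35, SE 0.05, adjusted p = 0.00204) and still higher than in BSA (0.35, SE 0.05, adjusted p = 0.000700). In FPKM, the mean rose by 16.6 with palmitic acid and was 6.15 above BSA when C3G was present. By size of change Acsl4 ranked 919 among the 6505 genes higher in PA vs BSA, and 952 among the 6498 genes lower in PA + C3G vs PA. By p-value it ranked 347 and 218.

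Acsl1 (ENSRNOG00000010633, chr16:48937456-49003246, minus strand) encodes the major synthetase of adipose tissue, liver and heart, and is a classical PPAR target. It was 36.3, 36.2 and 38.0 FPKM in BSA, 31.5, 30.3 and 31.8 FPKM in PA, and 27.6, 28.2 and 27.8 FPKM in PA + C3G. The groups did not overlap, and the lowest values were those with C3G. In PA vs BSA its log2 fold change was −0.21 (SE 0.04, adjusted p = 0.000704 by edgeR) and −0.34 in PA + C3G vs BSA (SE 0.04, adjusted p = 6.00e-05). It was −0.13 in PA + C3G vs PA (SE 0.04, adjusted p = 0.0329). That call was lost in 5 of 20 alternatives, namely without the filter on low values (adjusted p = 0.0535) and without PA replicate 1, PA replicate 3, PA + C3G replicate 1 or PA + C3G replicate 3 (adjusted p up to 0.112).

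Acsl3 (ENSRNOG00000014718, chr9:84569597-84593565, plus strand), whose product sits on the endoplasmic reticulum and nascent lipid droplets, was 20.9, 22.1 and 23.6 FPKM in BSA. It was 24.4, 27.3 and 27.4 FPKM in PA and 25.7, 27.7 and 26.4 FPKM in PA + C3G. Both groups given palmitic acid lay above BSA and overlapped each other. The log2 fold change was 0.28 in PA vs BSA (SE 0.06, adjusted p = 0.00441 by edgeR), 0.05 in PA + C3G vs PA (adjusted p = 0.635) and 0.32 in PA + C3G vs BSA (adjusted p = 0.00274).

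Acsl5 (ENSRNOG00000016265, chr1:276240703-276290008, plus strand), a synthetase of mitochondria and endoplasmic reticulum that is abundant in intestine, was also higher in both groups given palmitic acid. It was 33.0, 30.4 and 32.7 FPKM in BSA, 39.6, 35.7 and 39.2 FPKM in PA, and 38.6, 35.1 and 36.0 FPKM in PA + C3G. BSA again lay apart from the other groups, which overlapped. The log2 fold change was 0.28 in PA vs BSA (SE 0.06, adjusted p = 0.00245 by edgeR), −0.02 in PA + C3G vs PA (adjusted p = 0.820) and 0.25 in PA + C3G vs BSA (adjusted p = 0.00599).

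Acsl6 (ENSRNOG00000026745, chr10:39655455-39719312, plus strand), best known as a synthetase of the brain, was the least abundant of the 5 synthetases. It was 9.54, 8.97 and 9.27 FPKM in BSA, 10.6, 10.1 and 10.7 FPKM in PA, and 9.51, 9.23 and 9.46 FPKM in PA + C3G. The PA libraries lay above all others and the other groups overlapped. The log2 fold change was 0.20 in PA vs BSA (SE 0.04, adjusted p = 0.00251 by edgeR) and 0.08 in PA + C3G vs BSA (adjusted p = 0.141). In PA + C3G vs PA it was −0.12 (adjusted p = 0.0719), which passed with the replicate number as a block (adjusted p = 0.0449) and with each library scaled to the same FPKM sum (−0.21, adjusted p = 0.00958).

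Taken as a pool, the 5 synthetases had a higher summed level in every PA library than in any other library. Their summed level was 129, 123 and 132 FPKM in the BSA libraries, 152, 145 and 154 FPKM in PA, and 136, 133 and 134 FPKM in PA + C3G. No 2 groups overlapped. The mean was 22.5 FPKM higher in PA than in BSA and 16.2 FPKM lower in PA + C3G than in PA, each with p = 0.1 in a two-sided exact permutation test, the smallest p that 3 against 3 libraries can give.

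Acsl1 was the most abundant synthetase in BSA and Acsl4 in PA. The share of Acsl1 in the summed level was 28.8% ± 0.579 (SD, n = 3) in BSA, 20.7% ± 0.105 in PA and 20.8% ± 0.476 in PA + C3G. The share of Acsl4 was 21.6% ± 0.935, 29.4% ± 0.604 and 25.1% ± 0.560 in the same order. Between PA and PA + C3G the share of Acsl4 differed by 4.26 percentage points, several times the SD within either group (exact permutation p = 0.1), while that of Acsl1 differed by 0.0308 points (exact permutation p = 0.9). Acsl3 and Acsl5 took 17.6% and 25.4% in PA, and 19.8% and 27.3% in PA + C3G (exact permutation p = 0.1 for each), against 17.3% and 25.04% in BSA. Acsl6 held 7.24%, 6.95% and 7.00%. The shares are parts of 1 sum, so the share of a gene can rise because that of another fell. In PA + C3G vs PA, Acsl3 and Acsl5 themselves did not pass the edgeR test (adjusted p = 0.635 and 0.820). Acsl1, whose share was nearly the same, was lower there (adjusted p = 0.0329 by edgeR).

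**Figure D3:**
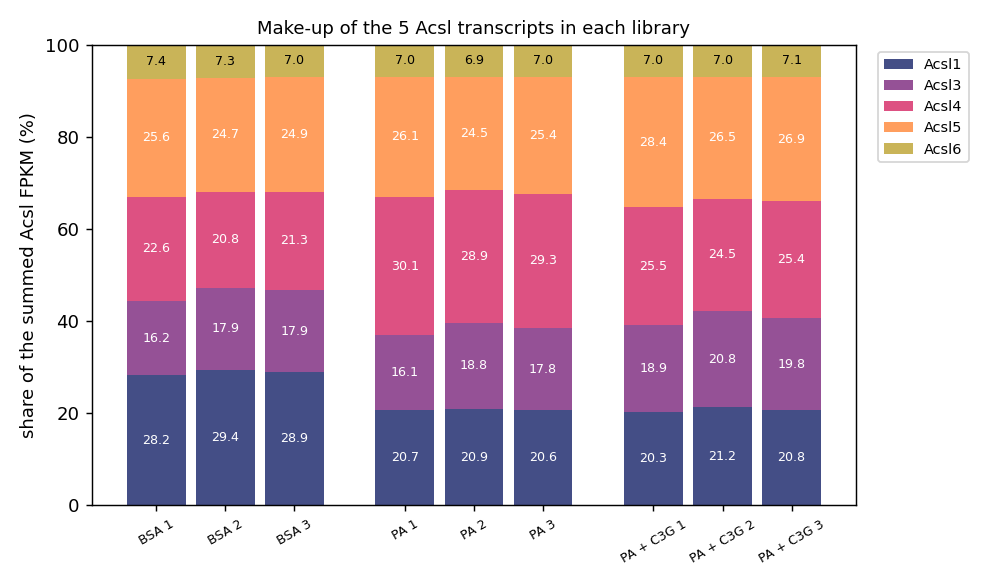
Share of each acyl-CoA synthetase gene in the summed FPKM of the 5 (vertical axis, percent, stacked to 100) in each of the 9 libraries, with the share printed in its segment. The Acsl1 segment, with a mean of 28.8% in BSA, is smaller in PA and PA + C3G (20.7% and 20.8%), and the Acsl4 segment goes from 21.6% to 29.4% and 25.1%.

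Ordered by mean level, the BSA group ran Fabp5, Acsl1, Acsl5, Slc27a4, Acsl4, Acsl3, Slc27a1, Acsl6 and Fabp3, and of these neighbours only Slc27a4 and Acsl4 overlapped between libraries. The PA group ran Fabp5, Acsl4, Acsl5, Acsl1, Slc27a4, Acsl3, Slc27a1, Fabp3 and Acsl6. There Acsl1 and Slc27a4 could not be told apart, nor could Slc27a1 from Fabp3 or Fabp3 from Acsl6. In PA + C3G the order was Fabp5, Acsl5, Acsl4, Slc27a4, Acsl1, Acsl3, Slc27a1, Fabp3 and Acsl6, with Slc27a4, Acsl1 and Acsl3 overlapping in sequence and likewise the last 3. Over all 9 libraries Fabp5 lay at percentile 90.9 of the genes tested, whose median was 12.9 FPKM. Acsl5, Acsl4, Acsl1, Slc27a4 and Acsl3 lay between percentiles 80.4 and 71.2, and Slc27a1, Acsl6 and Fabp3 at 48.1, 41.3 and 36.3.

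**Figure D4:**
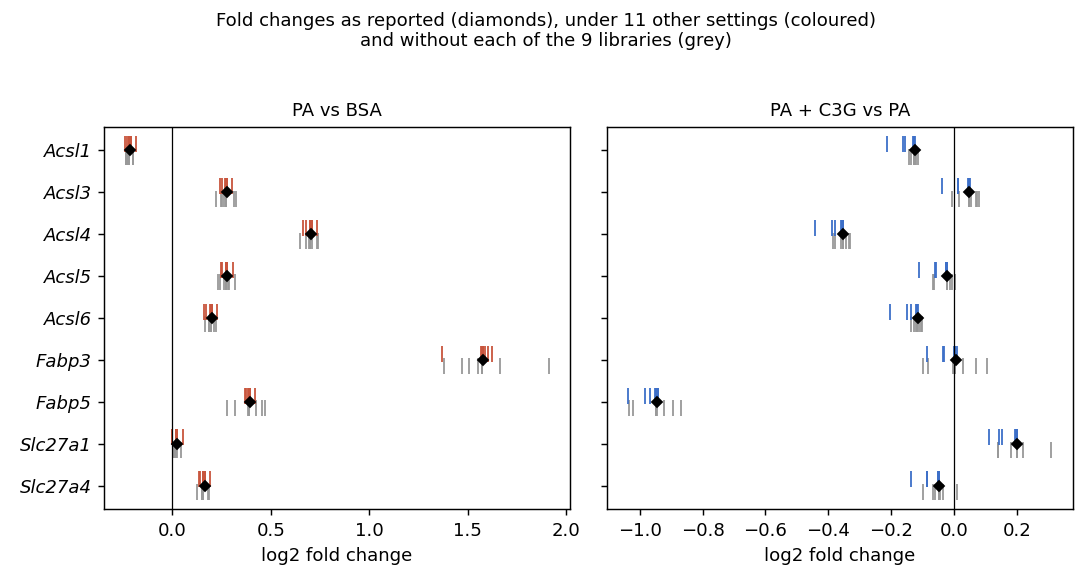
Log2 fold change of each gene (horizontal axis) in PA vs BSA and PA + C3G vs PA as reported (diamonds), under the settings that keep all libraries (coloured ticks) and without each of the 9 libraries (grey ticks). Acsl4 stays on its side of 0 under all 20 alternatives in both comparisons, and Fabp5 lies between −1.04 and −0.87 in PA + C3G vs PA.

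Related genes were counted on lists drawn up by family and role, and each count is set against the share of all genes tested that passed, 51.0% in PA vs BSA and 21.2% in PA + C3G vs PA. The annotation of the table places all 9 genes in the PPAR signaling pathway. It also places the 5 synthetases in adipocytokine signaling, fatty acid biosynthesis, fatty acid degradation, ferroptosis, peroxisome and thermogenesis. Of 24 other genes of the acyl-CoA synthetase, FATP and FABP families, 4 passed the filter on low values. In PA vs BSA 2 of these were higher and 1 lower, and in PA + C3G vs PA 1 was higher and 1 lower. Acss2, which activates acetate, averaged 15.6 ± 0.854 FPKM in BSA, 29.8 ± 2.70 FPKM in PA and 21.6 ± 1.34 FPKM in PA + C3G (SD, n = 3 each). Aacs, which activates acetoacetate, averaged 109 ± 5.93, 58.9 ± 1.62 and 73.5 ± 3.01 FPKM in the same order. Both genes passed the edgeR test in PA vs BSA (Acss2 log2 fold change 0.96, Aacs −0.86) and in PA + C3G vs PA (Acss2 −0.43, adjusted p = 0.00340, and Aacs 0.36, adjusted p = 0.00117). Acsf3 was higher in PA vs BSA (0.35, adjusted p = 0.00377), and Slc27a3 had values of 0.22 in PA vs BSA (adjusted p = 0.321) and 0.18 in PA + C3G vs PA (adjusted p = 0.502).

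Genes that act on the product, acyl-CoA, come next. Of the 7 thioesterases tested, which split acyl-CoA back into fatty acid, 3 passed the test in PA vs BSA, all higher. In PA + C3G vs PA 1 passed, and it was lower. The share passing in either direction did not stand above the 51.0% and 21.2% of all genes. By direction, 25.8% of all genes were higher in PA vs BSA and 10.2% lower in PA + C3G vs PA. Acot2, the mitochondrial thioesterase, averaged 1.27 ± 0.149 FPKM in BSA, 5.57 ± 0.621 FPKM in PA and 2.99 ± 0.360 FPKM in PA + C3G (log2 fold change 2.15 and −0.86, adjusted p = 1.95e-06 and 0.00304 by edgeR). Acot13 and Acot3 were also higher in PA (0.83, adjusted p = 0.0191, and 0.36, adjusted p = 0.0437), and Acot7 stood at −0.25 (adjusted p = 0.0578).

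Of the 6 acyl-CoA binding proteins tested, 1 was higher and 1 lower in PA vs BSA, and 2 passed in PA + C3G vs PA, both higher, against 51.0% and 21.2% of all genes passing. Dbi, the main acyl-CoA binding protein, averaged 30.9 ± 1.38 FPKM in BSA, 25.4 ± 1.01 FPKM in PA and 29.2 ± 0.677 FPKM in PA + C3G (log2 fold change −0.26 and 0.24, adjusted p = 0.00165 and 0.00864 by edgeR). Acbd3 was higher in PA vs BSA (0.26, adjusted p = 0.000669), and Scp2, a sterol and acyl-CoA carrier, was higher in PA + C3G vs PA (0.17, adjusted p = 0.0100). Acbd4 did not pass the edgeR test in PA vs BSA (−0.24, adjusted p = 0.0978) or in PA + C3G vs PA (0.11, adjusted p = 0.550).

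Of 21 genes for the first enzymes that use acyl-CoA, 7 were higher and 3 lower in PA vs BSA, and 3 were higher and 2 lower in PA + C3G vs PA, shares close to the 51.0% and 21.2% of all genes. Cpt1a, which admits acyl groups to mitochondria, averaged 13.1 ± 0.461 FPKM in BSA, 33.8 ± 2.06 FPKM in PA and 31.2 ± 2.19 FPKM in PA + C3G. Scd2, a desaturase, averaged 465 ± 9.77, 1062 ± 26.8 and 813 ± 20.1 FPKM, and Lpcat3, which puts polyunsaturated acyl chains into phospholipids, averaged 74.1 ± 1.297, 150 ± 5.33 and 139 ± 3.02 FPKM. All of these rose in PA vs BSA (log2 fold change 1.39 for Cpt1a, 1.22 for Scd2 and 1.05 for Lpcat3). In PA + C3G vs PA, Scd2 fell (−0.35, adjusted p = 0.000187 by edgeR) and so did the peroxisomal oxidase Acox3 (−0.30, adjusted p = 0.0179). Cpt1a and Lpcat3 did not pass there (−0.08 each, adjusted p = 0.415 and 0.145).

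The PPARs are nuclear receptors that fatty acids activate, and several of the genes described here are known targets. Of 6 genes tested among the receptors, their partners and coactivators, 2 were higher and 1 lower in PA vs BSA (51.0% of all genes passed), and 3 were higher and 2 lower in PA + C3G vs PA (21.2% of all genes). The coactivator Ppargc1a averaged 1.07 ± 0.317 FPKM in BSA, 4.40 ± 0.885 FPKM in PA and 2.23 ± 0.143 FPKM in PA + C3G (log2 fold change 2.06 and −0.94, adjusted p = 4.54e-05 and 0.0140 by edgeR). The receptor partner Rxra averaged 38.9 ± 3.34, 28.1 ± 0.446 and 36.4 ± 0.578 FPKM (−0.44 and 0.41, adjusted p = 0.000149 and 0.00153). Ppargc1b was higher in PA vs BSA and lower with C3G (0.97 and −0.57, adjusted p = 0.000355 and 0.0205), and Rxrg was higher in PA + C3G vs PA (1.07, adjusted p = 0.0118). Ppard, the gene of PPAR delta, passed the filter and averaged 6.60, 6.12 and 7.29 FPKM in BSA, PA and PA + C3G. Ppard passed the edgeR test in PA + C3G vs PA, where it was higher, and did not pass in PA vs BSA. Ppara and Pparg were below the filter on the mean over all libraries. Ppara averaged 0.598, 1.17 and 0.776 FPKM in the same order, and Pparg was at most 0.243 FPKM in any library.

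Of 17 known PPAR target genes tested outside the 9, 13 were higher and 3 lower in PA vs BSA, with a median log2 fold change of 0.29, where 25.8% of all genes tested were higher and 25.2% lower. With C3G against PA alone 5 were higher and 3 lower, with a median of −0.05, where 11.1% of all genes tested rose and 10.2% fell. In PA + C3G vs BSA 12 were higher and 3 lower, where 19.0% and 17.9% of all genes were. Acaa2, the last enzyme of the mitochondrial beta-oxidation spiral, averaged 27.4 ± 0.228 FPKM in BSA, 70.8 ± 2.30 FPKM in PA and 71.9 ± 1.03 FPKM in PA + C3G. Ech1, an isomerase for unsaturated acyl chains, averaged 37.7 ± 0.760, 107 ± 0.954 and 90.8 ± 6.15 FPKM, and was lower with C3G than with palmitic acid alone (log2 fold change −0.20, adjusted p = 0.0185 by edgeR). Slc25a20, the mitochondrial acylcarnitine carrier, averaged 24.4 ± 0.388, 55.1 ± 0.672 and 52.0 ± 2.79 FPKM and did not pass in PA + C3G vs PA (−0.05, adjusted p = 0.515).

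Genes whose pattern over the 9 libraries was closest to 3 of the genes were found by the root mean square difference of log2 CPM (counts scaled to library size), centred on each gene's mean, with no test. Closest to Acsl4 were Ghitm, Syt4 and Trib1, at 0.029, 0.042 and 0.051. Closest to Acsl1 were Ppp2r5c, Cct8 and Cpsf6, at 0.026, 0.035 and 0.037. For Fabp3 the closest were F2, Lamb3 and Osgin1, at 0.16, 0.24 and 0.25. The distance is not scaled to the size of change or to counts, and Fabp3 changed most on the fewest counts of the 3. Distances are therefore not compared between these genes.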

How the data were processed

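The authors selected poly(A) RNA from INS-1E cells, made strand-marked paired-end libraries and deposited, per gene, estimated counts without normalization and FPKM scaled to length and mapped fragments. The submitters' processing notes name cutadapt 1.9, HISAT2 2.0.4 and StringTie 1.3.4d, besides DESeq2 and edgeR without a version. The genome build is not given in the sources used here.

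Libraries were grouped by the sample titles, which read control, palmitic acid treated or cyanidin-3-o-glucoside treated. The BSA of the controls, the palmitic acid given with C3G and the doses came from the study's methods. The estimated counts, which are whole numbers, were tested with edgeR 4.0.16 (R 4.3.3; quasi-likelihood F-test, TMM, all 9 libraries in 1 model) on 12958 genes (minimum mean FPKM of 1), with Benjamini-Hochberg adjustment over these genes and a threshold of 0.05. Scripts were tested on simulated data. Summed levels and shares were compared by a two-sided exact permutation test. No 2 libraries held the same values (0 identical pairs).

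The 10 genes and the lists were chosen with earlier results of these data known. Named from each list were the 4 tested genes with the smallest p in PA vs BSA or PA + C3G vs PA, and the 3 closest genes for each of the 3 genes with the smallest p in PA vs BSA. Tried as alternatives were limma 3.58.1 on log2(FPKM + 1) or log2(FPKM + 0.1), DESeq2 1.42.0, RLE size factors, TPM scaling, other filters, only the compared groups, the replicate number as a block, counts divided by 4, and leaving out each library. Promoters came from RefSeq (GRCr8), which matched 8 of the 9 genes.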

Additional observations from a re-analysis of the deposited data

How the results depend on the processing

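Of 27 fold changes (9 genes in 3 comparisons), 15 kept their direction and their side of the threshold under all 20 alternatives. Among these were Acsl4 in all 3 comparisons, the changes of Fabp3, Acsl1, Acsl3, Acsl5 and Acsl6 in PA vs BSA, and those of Fabp5 in PA + C3G vs PA and vs BSA. Of the 540 values, 16 lost the call, 6 gained one and 14 turned sign, the last only for changes that had not passed. Slc27a1 in PA vs BSA turned to −0.0020 and −0.0021 with limma. In PA + C3G vs PA, Fabp3 turned to −0.0865 with TPM scaling, −0.0334 and −0.0364 with limma and −0.0004 with a mean FPKM of at least 5, and Acsl3 to −0.0402 with TPM scaling. Without 1 library, in the same comparison, Fabp3 ranged from −0.1004 to 0.1031, Slc27a4 from −0.1004 to 0.0091, Acsl3 from −0.0063 to 0.0783 and Acsl5 from −0.0675 to 0.0036. The cause was not tested.

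The count of all genes passing in PA + C3G vs PA was 2752, and 1718 to 2838 without 1 library, lowest without PA replicate 3. The summed Acsl level differed by 28.0 FPKM in PA vs BSA and by −21.5 FPKM in PA + C3G vs PA with TPM scaling, and by 24.6 and −12.7 FPKM with TMM-effective library sizes. Between PA + C3G and PA, the split of all calls was 1436 higher and 1316 lower, but 775 and 2525 with TPM scaling and 1065 and 1636 with limma on log2(FPKM + 1). In PA + C3G vs BSA it was 2462 and 2321, but 1891 and 3039 with TPM scaling. Of the 9 genes, the number that passed ranged from 6 to 8, 2 to 4, and 6 to 7 in the order PA vs BSA, PA + C3G vs PA and PA + C3G vs BSA.

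The replicate numbers were not taken to pair the libraries, because the correlations of same-numbered deviations lay between −0.0918 and 0.0796. In PA + C3G vs PA, however, they were 0.0254 to 0.0796 for the same number and −0.0722 to 0.0103 for different numbers. Of all genes, 18.2% were lowest under the same number in all 3 groups. A weak pairing therefore remains possible. With the replicate block 6843, 3118 and 5058 genes passed, against 6614, 2752 and 4783. Among the 9 genes the block changed the calls of Slc27a4 in PA vs BSA and Acsl6 in PA + C3G vs PA. Fabp3 had the fewest counts and kept its call in PA vs BSA with the counts divided by 4.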

Other observations

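Ratios between pairs of genes were computed after the values had been seen. The ratio of Acsl4 to Acsl1 FPKM was 0.801, 0.708 and 0.738 in the BSA libraries, 1.45, 1.39 and 1.42 in PA, and 1.26, 1.15 and 1.22 in PA + C3G. Acsl4 was thus below Acsl1 in all 3 BSA libraries and above it in all 6 libraries given palmitic acid. The genes were seen to move apart before the ratio was formed, so it is given without a test.

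The ratio of Fabp5 to Fabp3 was 14.2, 22.7 and 24.5 in BSA, 7.75, 8.55 and 8.98 in PA, and 4.26, 4.16 and 4.69 in PA + C3G. It was lower in every PA + C3G library than in any other library, and is likewise given without a test.

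Within the groups, 5 of the 9 genes were lowest in the library with the same replicate number in all 3 groups (replicate 2 for Acsl4, Acsl5, Acsl6 and Slc27a1, replicate 1 for Acsl3), compared with 18.2% of all genes tested.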
